A study of Mus musculus with 8 samples.

Results

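The genes described here control how cells sense and move cholesterol. They are Srebf1 and Srebf2, which encode the SREBP transcription factors, Insig1 and Insig2, which hold SREBPs back, Nr1h3, the gene of the sterol receptor LXR-alpha, the efflux transporter genes Abca1 and Abcg1, the lipoprotein gene Apoe and the sterol transfer gene Stard4. For each of these 9 genes, of 18820 measured genes in all, the probe set annotated to that gene alone with the highest mean over the 8 arrays was used, and each gene had 1 such probe set. The tissue was epididymal white fat, a visceral depot, taken from male C57BL/6 mice. 4 arrays came from mice overexpressing human interleukin-37 (IL37TG), a cytokine known to restrain innate inflammation, and 4 from wild-type mice (WT). All mice were fed low-fat chow (10% of energy) for 2 weeks and then high-fat chow (45% of energy) for 16 weeks, so no lean group is compared. The wild-type mice were bought from a supplier and are not described as littermates, so breeding source and transgene cannot be told apart. The promoter of the transgene and the mice's age are not given in the sources used here, and the transgene's own level was not analysed here, so it gives no check of the labels. Arrays are numbered as replicates without a statement that each was 1 mouse, so each p-value reflects the spread among these arrays alone, which may be technical, and the number of arrays limits the precision.

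SREBPs are made as precursors in the membrane of the endoplasmic reticulum, where the escort protein SCAP binds them. When sterols are plentiful, INSIG proteins retain SCAP and the precursors stay inactive, and when sterols are scarce the precursors are cut in the Golgi and their freed ends enter the nucleus. SREBP-2 mainly drives genes of cholesterol synthesis and uptake, with INSIG1 among its targets, whereas SREBP-1c mainly drives fatty acid synthesis. LXR-alpha, which binds oxysterols, works the other way round and raises efflux through ABCA1, ABCG1 and APOE. Fat tissue stores a large share of the body's free cholesterol in its lipid droplets, and macrophages of obese fat also carry these efflux genes. RNA levels as measured here do not show how much SREBP was cut or how active LXR was.

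RefSeq promoter windows (GRCm38.p6, up to 250 bases before a transcription start) were at hand for 7 of the 9 genes. The 4 stretches that follow are shown because they hold letters of elements that SREBPs, their partners and LXR are known to bind. Capitals in Srebf2 mark TCACCCCA, the core of a sterol regulatory element (SRE), and CCAAT, the box bound by the SREBP partner NF-Y, on either strand. Capitals in Insig1 mark CCAAT and the E-box CACGTG, those in Abca1 the E-box and a relaxed LXR repeat (NGGTNA in 2 copies with 4 bases between them), and those in Srebf1 that same repeat. The Srebf1 stretch lies before the most downstream of 3 listed starts. The stretches lie before the start at chr15:82147084-82147163 for Srebf2 and chr5:28071182-28071331 for Insig1, both on the plus strand, and at chr4:53159936-53160055 for Abca1 and chr11:60210592-60210671 for Srebf1, both on the minus strand.
Srebf2: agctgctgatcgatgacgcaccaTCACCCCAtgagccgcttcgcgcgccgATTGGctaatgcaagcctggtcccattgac
Insig1: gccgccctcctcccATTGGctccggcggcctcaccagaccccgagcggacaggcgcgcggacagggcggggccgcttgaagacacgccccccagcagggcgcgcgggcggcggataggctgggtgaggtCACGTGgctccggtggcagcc
Abca1: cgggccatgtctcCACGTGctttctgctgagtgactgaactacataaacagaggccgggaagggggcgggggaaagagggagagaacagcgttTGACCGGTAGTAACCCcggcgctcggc
Srebf1: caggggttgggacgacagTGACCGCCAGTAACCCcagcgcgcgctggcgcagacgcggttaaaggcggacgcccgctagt

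Shares are of 27025 genes, a gene counting if any of its windows matched, both strands searched. The relaxed LXR repeat was in 0.707% of genes and the SRE core in 1.54%. Among the 7 genes with a window the repeat was in Srebf1 and Abca1 and the core in Srebf2 and Apoe. The E-box was in 6.86% of genes. Other SRE spellings were TCACNCCAC (1.22% of genes, none of the 7), the gapped spelling (1.59%, Nr1h3) and CACNCCAC (6.05%, Insig1). The strict LXR repeat, AGGTCA in 2 copies with 4 bases between them, was in 0.0148% of genes and in none of the 7. CCAAT was in the windows of 37.5% of genes, of Srebf1, Srebf2, Insig1 and Insig2 among the 7, and of 14 of 15 SREBP-2 target genes with a window. The SRE core was in 1 of those 15 targets (Hmgcs1) and the gapped SRE spelling in none. These letters were chosen with known elements of such genes in mind and after matches were seen, among 8 spellings searched, so a match is a description and not a bound site.

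No gene of the 9 passed the test over all genes (limma, Benjamini-Hochberg adjusted p at most 0.05), which 3.34% of all genes did (2.07% higher and 1.27% lower). At an unadjusted p of at most 0.05, 5 of the 9 differed (limma), with Insig2 and Apoe higher and Srebf2, Insig1 and Stard4 lower in IL37TG fat, against 20.6% of all genes (11.2% higher and 9.42% lower). The IL37TG and WT arrays did not overlap for 4 of them (Insig2 and Apoe higher, Insig1 and Srebf2 lower), against 14.0% of all genes (8.24% higher and 5.73% lower). The differences (IL37TG minus WT) ran from -0.47 to 0.31 log2 units with a median of -0.0054, where the median of all genes was 0.02. The 2 SREBP genes differed in opposite directions, and so did the 2 INSIG genes.

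**Figure D1:**
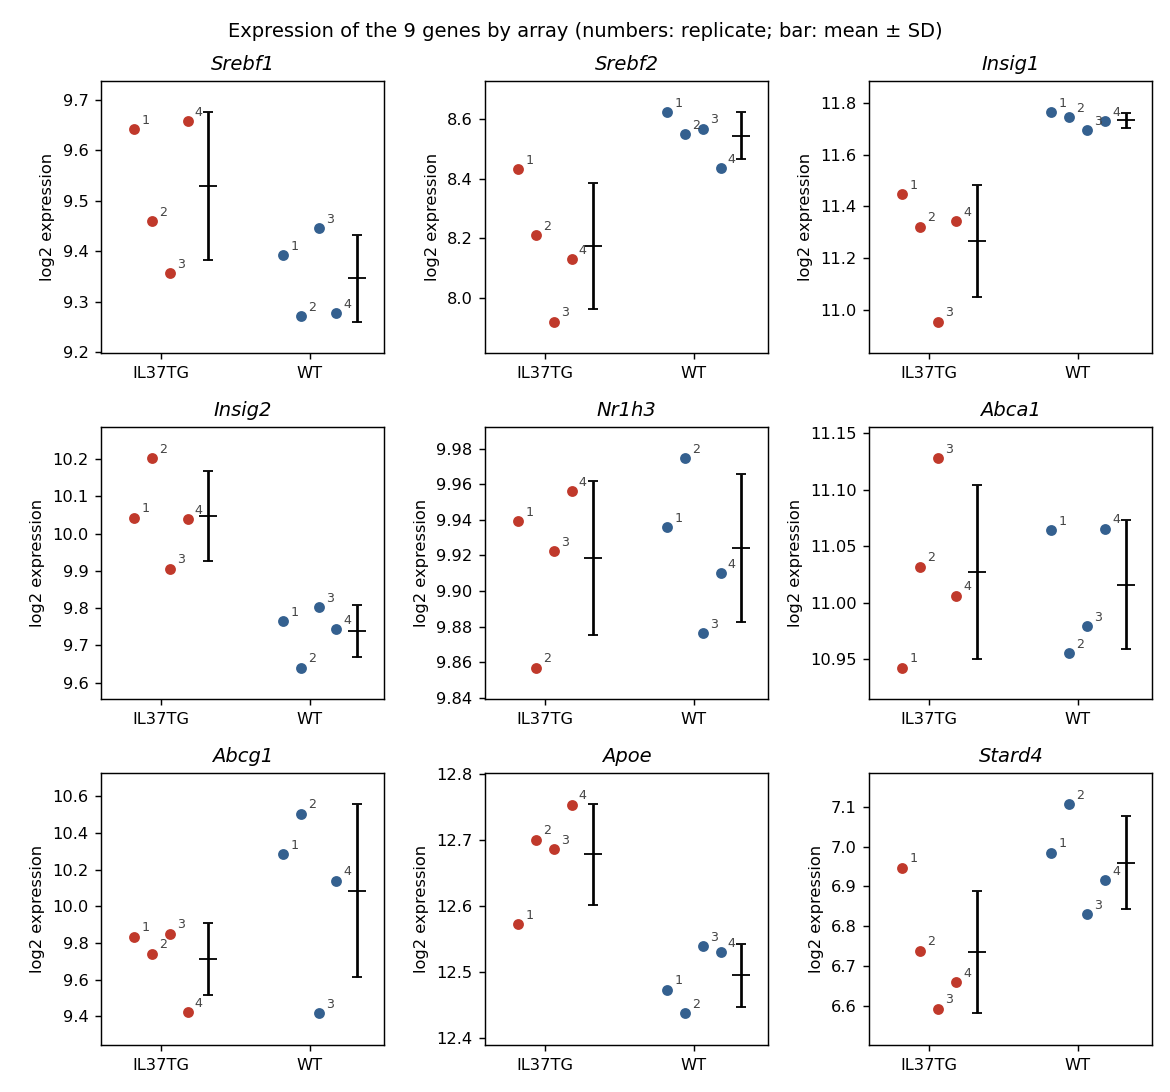
Log2 expression of the 9 genes on each array, IL37TG left and WT right, with replicate numbers beside the points and the mean ± SD as a bar (n = 4 per group); each panel has its own axis. All 4 IL37TG arrays lie below all WT arrays for Insig1 and Srebf2 and above them for Insig2 and Apoe, and WT replicate 3 lies far below the other WT arrays for Abcg1.

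Insig1, the retention gene that SREBPs themselves induce, showed the largest difference of the 9. Its log2 level was 11.45, 11.32, 10.95 and 11.34 on IL37TG arrays 1 to 4, against 11.76, 11.75, 11.70 and 11.73 on WT arrays 1 to 4. The WT arrays lay close together, and every IL37TG array lay below them by at least 0.25, replicate 3 farthest. The mean was 11.27 ± 0.22 in IL37TG fat and 11.73 ± 0.03 in WT fat (SD, n = 4 each; log2 -0.47, SE 0.10, 95% interval -0.70 to -0.23), a fold of 0.723, and the limma adjusted p was 0.0508, just outside the threshold. It passed without IL37TG replicate 3 (log2 -0.36, limma adjusted p = 0.0308), on removal of dim genes (adjusted p = 0.0376) and in 3 further settings. The array names carry a letter and a number, read here as plate row and column. Within columns 5, 7 and 9, each with 1 or 2 arrays a group, the difference was -0.38, -0.79 and -0.35. In row G, the one row with both groups (1 IL37TG and 2 WT arrays), it was -0.27. These signs were fixed, since every IL37TG array lay below every WT array. Row F held WT arrays alone and row H IL37TG arrays alone, so plate row and group can hardly be told apart. A fit with plate row as a block therefore rests on row G and gives the row G difference again.

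Insig2, the second retention gene, which lacks the strong SREBP response of Insig1, was higher in IL37TG fat. It measured 10.04, 10.20, 9.91 and 10.04 on IL37TG arrays 1 to 4 and 9.77, 9.64, 9.80 and 9.74 on WT arrays 1 to 4. The groups did not overlap, with a gap of 0.10 between IL37TG replicate 3 and WT replicate 3. The mean difference was 0.31 log2 units (SE 0.07, 95% interval 0.14 to 0.48), a 1.24-fold level that did not pass (limma adjusted p = 0.0648). Within columns 5, 7 and 9 it was 0.40, 0.15 and 0.40, and 0.27 in row G, signs that the separate groups had fixed.

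The Insig1 to Insig2 balance is given as a description. On the log2 scale Insig1 minus Insig2 within an array was 1.41, 1.12, 1.05 and 1.30 in IL37TG fat and 2.00, 2.11, 1.89 and 1.99 in WT fat. The groups had to separate here, since Insig1 was lower and Insig2 higher on every IL37TG array, so a permutation test of this difference adds nothing to the separate genes and none is given. These values rest on probe sets of 2 genes, so only their change between groups is meaningful. The change was -0.78 (1.22 ± 0.17 in IL37TG fat and 2.00 ± 0.09 in WT fat, SD, n = 4 each). With plate row as a block the change was -0.53.

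Srebf2, the SREBP gene of cholesterol synthesis, measured 8.43, 8.21, 7.92 and 8.13 on IL37TG arrays 1 to 4, against 8.62, 8.55, 8.57 and 8.43 on WT arrays 1 to 4. The groups were separate by only 0.003 log2 units, between IL37TG replicate 1 and WT replicate 4. The mean was 8.17 ± 0.21 in IL37TG fat and 8.54 ± 0.08 in WT fat (SD, n = 4 each; log2 -0.37, SE 0.11, 95% interval -0.61 to -0.13), which did not pass (limma adjusted p = 0.0985). In row G the difference was -0.07, and within columns 5, 7 and 9 it was -0.36, -0.61 and -0.27, signs that the separate groups had fixed.

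Srebf1 encodes SREBP-1, whose 1c form is an LXR and insulin target. It measured 9.64, 9.46, 9.36 and 9.66 on IL37TG arrays 1 to 4 and 9.39, 9.27, 9.45 and 9.28 on WT arrays 1 to 4. IL37TG replicate 3 lay inside the WT range and the other 3 above it. The difference was 0.18 log2 units (SE 0.08, 95% interval -0.01 to 0.38; limma adjusted p = 0.271). One probe set cannot tell the 1a and 1c transcripts apart.

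Srebf1 minus Srebf2 within an array was 1.21, 1.25, 1.43 and 1.53 log2 units in IL37TG fat and 0.77, 0.72, 0.88 and 0.84 in WT fat. Every IL37TG array lay above every WT array. The difference between groups was 0.55 (exact two-sided permutation p = 0.0286, the smallest that 70 assignments allow, n = 4 each, adjusted over 3 pairs 0.0429). Adjusted over the 2 pairs whose separation was not fixed in advance, an adjustment chosen after seeing the data, the p was 0.0571 and did not pass. The difference was 0.37, 0.63 and 0.65 within columns 5, 7 and 9 and 0.35 in row G, where the separate groups had fixed its sign.

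**Figure D2:**
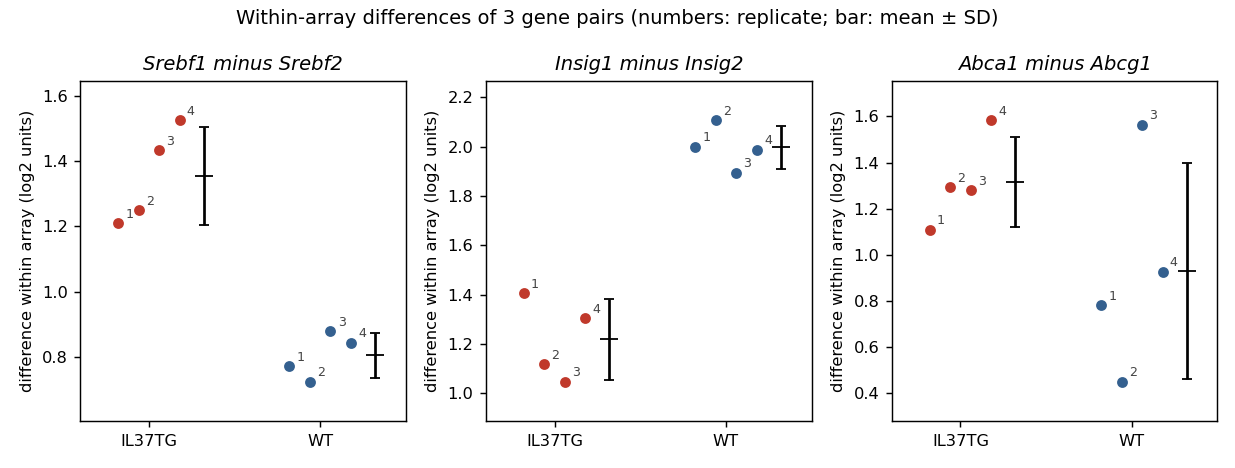
Within-array differences of 3 gene pairs (log2 units), IL37TG left and WT right, with replicate numbers and the mean ± SD as a bar (n = 4 per group). The groups are apart for Srebf1 minus Srebf2 and for Insig1 minus Insig2 and overlap for Abca1 minus Abcg1.

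Nr1h3 and its target Abca1 showed no detectable difference. Nr1h3 measured 9.94, 9.86, 9.92 and 9.96 on IL37TG arrays 1 to 4 and 9.94, 9.97, 9.88 and 9.91 on WT arrays 1 to 4, fully interleaved. Its difference was -0.01 log2 units with a 95% interval of -0.12 to 0.11 (limma adjusted p = 0.967). Abca1, the gene of the transporter that loads cholesterol onto lipid-poor apolipoproteins, measured 10.94, 11.03, 11.13 and 11.01 on IL37TG arrays 1 to 4 and 11.06, 10.96, 10.98 and 11.07 on WT arrays 1 to 4. The groups overlapped throughout, and the difference was 0.01 (95% interval -0.13 to 0.15; limma adjusted p = 0.937). For both genes the interval leaves room for folds of about 0.916 to 1.11 at the widest. The signs of both differences turned under some scalings and on removal of 1 array.

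Abcg1, the gene of the transporter that loads cholesterol onto mature lipoproteins, was uneven between arrays. It measured 9.83, 9.74, 9.85 and 9.42 on IL37TG arrays 1 to 4, against 10.28, 10.51, 9.41 and 10.14 on WT arrays 1 to 4. WT replicate 3 had the lowest value of all 8 arrays, and the other 3 WT arrays lay above every IL37TG array. The difference was -0.37 log2 units (SE 0.22, 95% interval -0.89 to 0.14; limma adjusted p = 0.384). Without WT replicate 3 it was -0.60 and passed (limma adjusted p = 0.0422), a widening that the removal of the lowest WT value was bound to give. Within columns 5, 7 and 9 it was 0.33, -0.36 and -0.88, and in row G 0.06. Abca1 minus Abcg1 changed by 0.39 (exact two-sided permutation p = 0.171, n = 4 each, adjusted over 3 pairs 0.171) and by -0.14 in row G.

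Macrophage markers moved over the arrays in a like order. The mean of 12 macrophage markers was 9.16, 9.22, 9.24 and 8.90 log2 units on IL37TG arrays 1 to 4 and 9.83, 9.86, 9.08 and 9.56 on WT arrays 1 to 4, so that it too was lowest in IL37TG replicate 4 among IL37TG arrays and in WT replicate 3 among WT arrays. Singly, 9 of the 12 markers were lowest in IL37TG replicate 4 and all 12 in WT replicate 3, against 37.2% and 37.8% of all genes. The trait is thus not particular to Abcg1 and these markers, but was more frequent among the markers than among all genes. Of the 12 markers 1 passed as higher and 2 as lower in IL37TG fat. The mean of 9 measured markers of lipid-associated macrophages lay between 9.29 and 9.89 on IL37TG arrays and between 9.97 and 10.93 on WT arrays, with 2 markers passing as lower. The part of these cells in the Abcg1 values was not tested, and in bulk tissue fewer cells and less RNA per cell cannot be told apart. Defining markers were present on every array: Adgre1, the F4/80 gene, was at 9.31 or above, and Adipoq, the adiponectin gene of fat cells, at 12.12 or above.

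**Figure D3:**
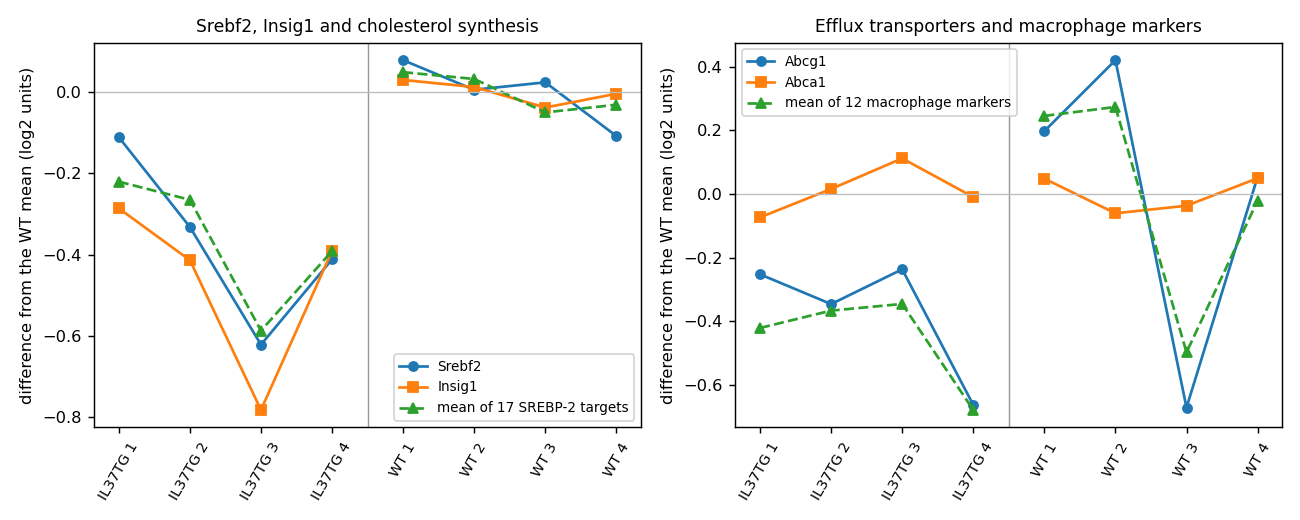
Differences from the WT mean (log2 units) by array, IL37TG arrays left of WT arrays. Srebf2, Insig1 and the mean of 17 SREBP-2 targets are lowest in IL37TG replicate 3 (left panel). Abcg1 and the mean of 12 macrophage markers are lowest in IL37TG replicate 4 and in WT replicate 3 within their groups, as are 37.2% and 37.8% of all genes, while Abca1 stays near 0 (right panel).

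Apoe, the gene of the lipoprotein ligand that carries effluxed cholesterol, is made by both fat cells and macrophages. It measured 12.57, 12.70, 12.69 and 12.75 on IL37TG arrays 1 to 4 and 12.47, 12.44, 12.54 and 12.53 on WT arrays 1 to 4. The groups did not overlap, by a gap of 0.033. The difference was 0.18 log2 units (SE 0.06, 95% interval 0.05 to 0.32), a 1.14-fold level that did not pass (limma adjusted p = 0.126). The mean of 9 measured fat cell markers lay between 12.16 and 12.24 on IL37TG arrays and between 11.95 and 12.10 on WT arrays, with 2 markers passing as higher, and its part in the Apoe and Insig2 values was not tested. In row G the Apoe difference was 0.04, with its sign fixed by the separate groups.

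Stard4 encodes a soluble protein that shuttles cholesterol between membranes and is itself an SREBP target. It measured 6.95, 6.74, 6.59 and 6.66 on IL37TG arrays 1 to 4 and 6.98, 7.11, 6.83 and 6.92 on WT arrays 1 to 4. IL37TG replicate 1 lay inside the WT range and the other 3 below it. The difference was -0.23 log2 units (SE 0.09, 95% interval -0.44 to -0.01; limma adjusted p = 0.221), and 0.07 in row G.

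**Figure D4:**
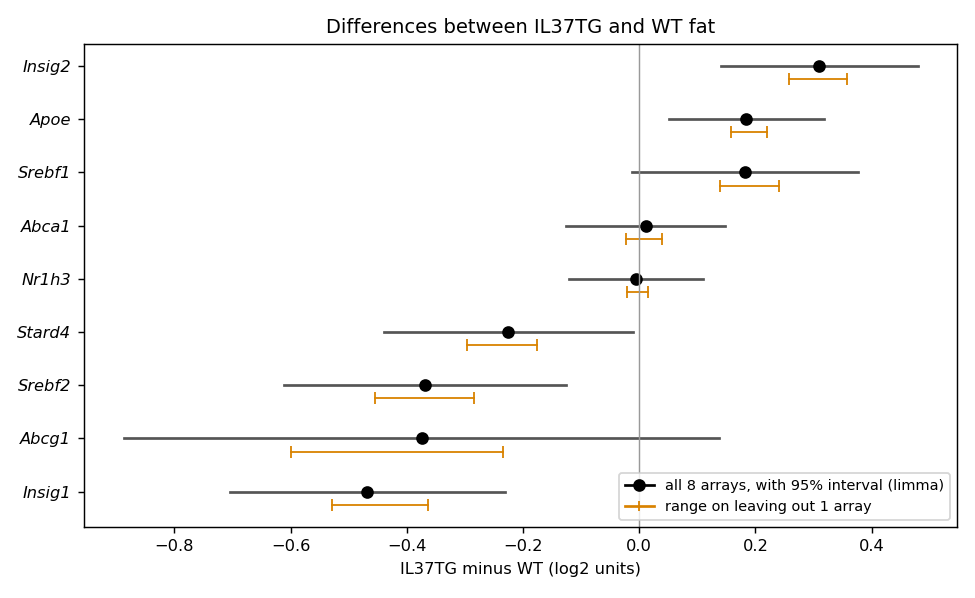
IL37TG minus WT differences (log2 units) of the 9 genes, with the 95% interval from limma (grey) and the range of values when 1 array is left out (orange). Insig1, Srebf2, Stard4, Apoe and Insig2 have intervals that leave out 0, and the interval of Abcg1 is the widest.

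Several SREBP-linked genes had their lowest IL37TG value on the same array, although their highest arrays differed. IL37TG replicate 3 had the lowest IL37TG value for Srebf1, Srebf2, Insig1, Insig2 and Stard4, and likewise for 14 of 17 measured SREBP-2 targets and for 6 of 12 SREBP-1 targets. That array was the lowest of the IL37TG arrays for 26.1% of all genes and for 6 of 6 mesothelial markers, so the trait is not particular to SREBP-linked genes. After removal of the group means, Srebf2 and Insig1 had a Pearson r of 0.86 over the 8 arrays, Srebf2 and Stard4 0.75, and Srebf1 and Srebf2 0.68. With Srebf2, Insig1 and Stard4 in turn, Abca1 had an r of -0.76, -0.74 and -0.64, and Apoe -0.60, -0.30 and -0.87. Abcg1 did not run against these genes (0.02, -0.02 and 0.61). Insig2 ran against Nr1h3 (-0.73). The pairs printed are a selection from all pairs of the genes described here. These arrays share their processing and only 4 belong to each group, so the coefficients are descriptions. Among 13465 genes compared in the same way, those most like Insig1 were Pip4p2 (0.99), Zfp438 (0.98) and Adsl (0.97). Those most like Srebf2 were Prmt7 (0.98), Tsc2 (0.97) and Etv1 (0.96), and those most like Insig2 were Micos10 (0.99), Ndufa4 (0.99) and Ndufb6 (0.99).

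Genes of the wider pathway were read from 7 lists, of whose 82 genes 68 were measured. Of these 1 rose and 8 fell in IL37TG fat. That share of 13.2% stands beside 3.34% for all genes, but earlier results of these data had already shown cholesterol synthesis genes to be lower. With plate column as a block 1 of the 68 passed (limma), beside 72 of all 18820 genes. With replicate number as a block 4 of the 68 passed (limma), beside 93 of all genes. A fit with plate row as a block rests on row G, with 1 IL37TG and 2 WT arrays, so its counts are not given.

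Cholesterol synthesis genes driven by SREBP-2 held 7 of the 8 genes that fell. Of 17 measured, 7 fell and none rose (limma), against 1.27% and 2.07% of all genes. At an unadjusted p of at most 0.05, 12 were lower and 1 higher (limma), against 9.42% and 11.2% of all genes. A negative difference was seen for 15, against 44.7% of all genes (median -0.36, beside 0.02 for all genes). The list's mean differed by -0.37 overall and by -0.18 in row G. Marker means also differed, in both directions. Those lower in IL37TG fat were of lipid-associated macrophages (-0.94), neutrophils (-0.49, with 2 of 4 markers passing), macrophages (-0.45), mast cells (-0.32), T cells (-0.16) and fibroblasts and progenitors (-0.05). Those higher were of mesothelial (0.34), B (0.27), fat (0.20) and endothelial (0.09) cells. Among IL37TG arrays the list's mean was lowest in replicate 3, where the macrophage marker mean was highest and the mesothelial marker mean lowest. The lipid-associated macrophage mean there was 9.62, below replicates 1 and 2 (9.78 and 9.89) and above replicate 4 (9.29). Among WT arrays the list's mean (8.93) and the macrophage marker mean (9.08) were both lowest in replicate 3. The part of these cells in the list's values was not tested. Hsd17b7, a sterol 3-keto reductase gene, measured 8.46, 8.49, 8.53 and 8.48 on IL37TG arrays 1 to 4 and 9.16, 8.98, 9.20 and 9.09 on WT arrays 1 to 4. Its difference of -0.61 (SE 0.06, limma adjusted p = 0.00535) was the one of the 6 named here that passed whichever array was left out. Its 4 IL37TG values lay close together, with the highest in replicate 3, where Insig1 and Srebf2 had their lowest. Sqle, the gene of squalene epoxidase, a rate-limiting enzyme, measured 7.60, 7.60, 7.04 and 7.42 on IL37TG arrays 1 to 4 and 8.26, 7.98, 8.18 and 7.94 on WT arrays 1 to 4 (log2 -0.67, SE 0.14, limma adjusted p = 0.0440), and its call was lost for 7 of 8 arrays left out. Mvk (log2 -0.36), Mvd (log2 -0.67), Dhcr7 (log2 -1.08) and Msmo1 (log2 -0.53), all enzymes of the same route, fell too, and their calls were lost for 3, 4, 4 and 6 arrays. With plate row as a block Mvd differed by -0.39 and Dhcr7 by -0.65. Lss, lanosterol synthase, was the seventh (log2 -0.59, limma adjusted p = 0.0481). Fdft1, the gene of squalene synthase, singled out here after its values were seen, ran the other way without passing (log2 0.38, SE 0.12, limma adjusted p = 0.115).

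**Figure D5:**
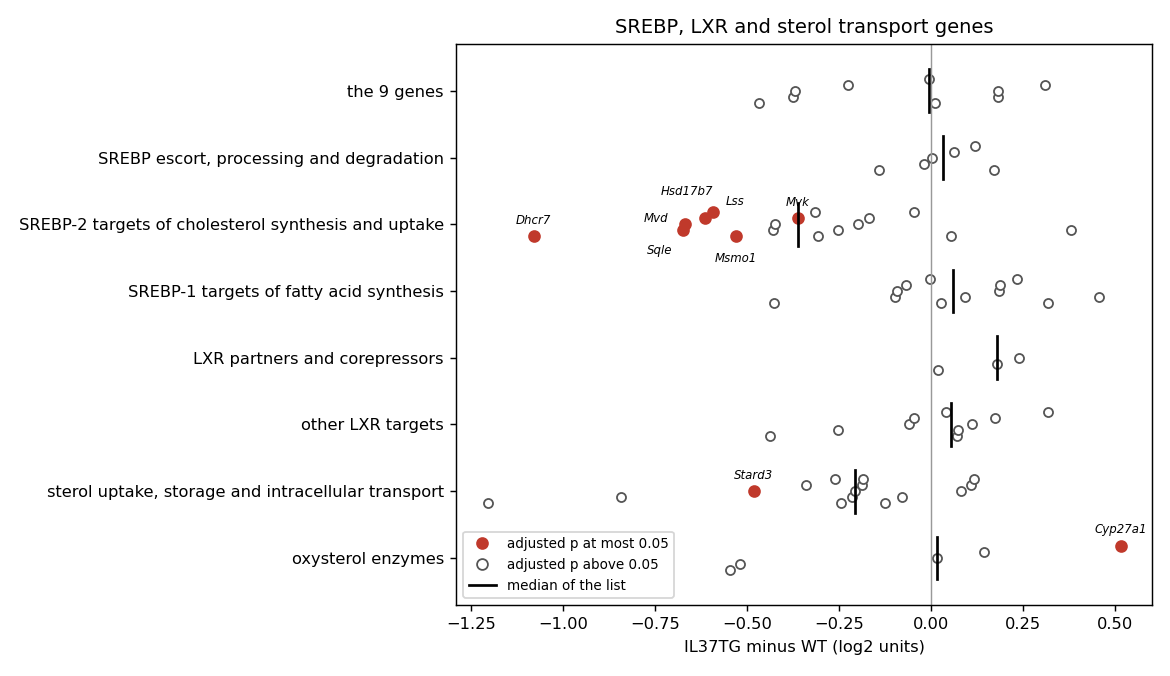
IL37TG minus WT differences (log2 units) of the 9 genes and of 7 pathway lists; filled red points passed limma at an adjusted p of at most 0.05, and a black line marks each list's median. Genes that fell lie in the SREBP-2 target list and, with Stard3, in the sterol transport list, and Cyp27a1 is the one gene that rose.

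Fatty acid synthesis genes driven by SREBP-1 had no member past the threshold among 12 (limma). At an unadjusted p of at most 0.05, 3 of them, Acaca, Acacb and Gpam, were higher and none lower (limma), against 11.2% and 9.42% of all genes. Acaca, the acetyl-CoA carboxylase gene, was at 10.70, 10.42, 10.31 and 10.66 on IL37TG arrays 1 to 4 and at 10.27, 10.16, 10.17 and 10.20 on WT arrays 1 to 4 (log2 0.32, SE 0.09, limma adjusted p = 0.105), with a difference of 0.51 with plate row as a block. The arrays did not overlap. Gpam, which starts glycerolipid assembly, differed by 0.18 (limma adjusted p = 0.150). The list's median difference was 0.06, close to that of all genes.

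Genes of SREBP escort, cutting and degradation had none of 6 measured past the adjusted or unadjusted threshold (limma), which 3.34% and 20.6% of all genes passed. The 6 were Scap for escort, Mbtps1 for cutting, and Rnf139, Erlin1, Erlin2 and Fbxw7 for degradation. Mbtps2, a second gene of the cutting step, was not measured, so that step was covered only in part. The lowest p belonged to Erlin2, a lipid raft protein gene of the sterol-dependent degradation system (log2 -0.14, limma adjusted p = 0.272), and to Rnf139, the gene of the ubiquitin ligase TRC8 (log2 0.17, limma adjusted p = 0.327). Scap itself differed by -0.02 (95% interval -0.14 to 0.10).

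On the LXR side, 3 measured receptor partners and 10 further targets had no member past the threshold (limma). At an unadjusted p of at most 0.05 there was 1 gene, Rxra (limma), against 20.6% of all genes. Rxra, the gene of the retinoid receptor that pairs with LXR, measured 9.94, 9.86, 9.94 and 10.03 on IL37TG arrays 1 to 4 and 9.69, 9.68, 9.82 and 9.63 on WT arrays 1 to 4. The groups did not overlap, but the difference of 0.24 (SE 0.06) did not pass (limma adjusted p = 0.0815). Rxrg differed by 0.18, and by -0.04 with plate row as a block. Apoc1, an apolipoprotein gene beside Apoe, differed by 0.32 (limma adjusted p = 0.265), and by -0.15 with plate row as a block. Smpdl3a, a phosphodiesterase gene induced by LXR in macrophages, differed by 0.11 (limma adjusted p = 0.332).

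Sterol storage and transport genes had 1 of 15 measured members past the threshold, while 7 were lower and none higher at an unadjusted p of at most 0.05 (limma), against 9.42% of all genes lower. 12 of the 15 differences were negative, against 44.7% of all genes, and 5 genes were lower with no overlap of the groups, against 5.73% of all genes. Stard3, whose protein moves cholesterol at late endosomes, fell in IL37TG fat. It measured 8.09, 7.77, 7.94 and 7.75 on IL37TG arrays 1 to 4 and 8.41, 8.51, 8.22 and 8.33 on WT arrays 1 to 4 (log2 -0.48, SE 0.10, limma adjusted p = 0.0438), and its call was lost for 6 of 8 arrays left out and after centring on array medians, and its difference was -0.18 with plate row as a block. Lipa, the gene of the lysosomal lipase that frees cholesterol from its esters, measured 10.56, 10.62, 10.51 and 10.01 on IL37TG arrays 1 to 4 and 11.51, 11.62, 10.72 and 11.21 on WT arrays 1 to 4. Its difference was -0.84 (SE 0.21, limma adjusted p = 0.0750), but -0.41 with plate row as a block and -0.10 within column 5. It had its lowest values on the same arrays of each group as Abcg1 and the macrophage markers, whose part was not tested. 9 of the 15 genes had their lowest WT value in replicate 3 and 9 their lowest IL37TG value in replicate 4, as did 37.8% and 37.2% of all genes.

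Of the 5 genes that make or break down oxysterols, the natural LXR ligands, Cyp27a1 rose and none fell (limma). At an unadjusted p of at most 0.05, 2 were lower and 1 higher (limma), against 9.42% and 11.2% of all genes. Cyp27a1, the gene of mitochondrial sterol hydroxylase, measured 9.68, 10.00, 9.78 and 9.67 on IL37TG arrays 1 to 4 and 9.35, 9.33, 9.17 and 9.21 on WT arrays 1 to 4. The groups were apart by 0.32, and the difference was 0.52 (SE 0.09, limma adjusted p = 0.0245), a call lost for 6 of 8 arrays left out. Cyp7b1, whose enzyme clears oxysterols, differed by -0.55 (SE 0.14, limma adjusted p = 0.0750).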

How the data were processed

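Each deposited value is a log2 level of 1 probe set on a single-colour array, which the authors obtained with RMA, per the submitters' processing notes. RMA corrects background, equalises arrays by quantiles and summarises probes, which hides any shift common to most genes. Its version and settings are not given in the sources used here, and no detection calls were used. Array medians lay between 5.97 and 6.04.

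The annotation used gave a single symbol to 21218 of 35556 probe sets, several to 1881 and none to 12457, and symbols were updated through Entrez identifiers. Pathway genes without a probe set of their own were not analysed here. All 18820 genes were tested, two-sided, by lmFit and eBayes of limma 3.58.1 (R 4.3.3) with Benjamini-Hochberg adjustment. Gene pairs were compared by exact permutation over 70 assignments, adjusted over 3 pairs; the p of Insig1 minus Insig2 was fixed by the separate genes and is not reported. The fit was tested on simulated data. Named were the 9 genes, up to 6 passing genes or the 2 lowest p of each pathway list, and the 3 genes most like each of the 3 members with the lowest p. Lss, Fdft1, Acacb, Scap, Apoc2, Apoc4 and Nceh1 were added after their values were seen. Members and lists were chosen with earlier results of these data known. Alternatives covered normalization, dim genes, probe sets, prior, array weights, blocks and arrays left out.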

Additional observations from a re-analysis of the deposited data

Results flagged for a closer look

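Among 94 sets of 4 replicate arrays (the 9 genes, named pathway genes, pairs and lists), 5 sets (5.32%) contained a single outlying array. About 1 in 20 would do so by chance. In log2 units, IL37TG replicate 3 stood high for the mean of the other LXR targets (9.02) and low for the mesothelial marker mean (8.00), and IL37TG replicate 2 stood high for the fibroblast and progenitor marker mean (9.89). WT replicate 3 stood low for Dhcr7 (8.68) and WT replicate 2 for Rxrg (8.22).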

How the results depend on the processing

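The count of genes past the threshold, 629 over all genes, was 1263 with array weights, 93 with replicate number as a block, 70 with plate row as a block and 72 with plate column as a block, and ran from 82 (without WT replicate 4) to 1188 (without WT replicate 3) when 1 array was left out. Of the 9 genes, where 0 passed, 1 passed after a second quantile normalization (Insig1), 1 after centring (Insig2), 2 (Insig1 and Insig2) among genes at or above the 25th percentile, with a trended and robust prior and with array weights, and 0 to 1 with 1 array left out (Insig1 without IL37TG replicate 3, Abcg1 without WT replicate 3). Abcg1 was also the 1 that passed without WT replicate 3 and IL37TG replicate 4 together. Of the pathway genes, where 9 passed, 16 passed with array weights, 4 with the replicate block and 1 with the column block. With 1 array left out, 1 to 13 passed. The row block rests on row G, the one row with both groups (1 IL37TG and 2 WT arrays). Its values repeat the row G differences and are no separate check, and its counts of passing genes are left out. With the row block Srebf1 minus Srebf2 changed by 0.35, Insig1 minus Insig2 by -0.53 and Abca1 minus Abcg1 by -0.14, the opposite sign. That block also turned Abcg1 (0.057), Stard4 (0.074), Nr1h3 (0.046), Abca1 (-0.080), Rxrg (-0.039) and Apoc1 (-0.15). Nr1h3 was 0.0061 after centring and ran from -0.021 to 0.015 with 1 array left out; Abca1 was -0.021 after a second quantile normalization and -0.017 with array weights, and ran from -0.022 to 0.039. The cause of these changes was not tested. The exact permutation p of Srebf1 minus Srebf2 was 0.0429 adjusted over 3 pairs and 0.0571 over 2, a choice made after seeing the data. Deviations of same-numbered arrays correlated by 0.09, 0.10, 0.09 and 0.06 over all genes and 2 of 8 arrays correlated best with their own number, so the numbers were not taken to pair the arrays. The signal range of the arrays limits what low or very bright probe sets can show.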

Other observations

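Apolipoprotein genes beside Apoe, singled out after their values were seen, did not share its direction on every array. Apoc4, a lipoprotein component gene, measured 5.93, 6.05, 7.04 and 5.84 log2 units on IL37TG arrays 1 to 4 and 6.83, 6.64, 6.49 and 6.65 on WT arrays 1 to 4 (log2 -0.44, SE 0.25, limma adjusted p = 0.363). 3 IL37TG arrays lay below all WT arrays and replicate 3 above them all. Apoc2, the activator of lipoprotein lipase, measured 6.94, 6.85, 7.83 and 6.88 on IL37TG arrays 1 to 4 and 7.39, 7.25, 7.38 and 7.51 on WT arrays 1 to 4 (log2 -0.25, limma adjusted p = 0.535), with replicate 3 again the highest array. Whether their probes read shared transcripts was not tested. Nceh1, the gene of a hydrolase that frees cholesterol from its esters in macrophages, had the widest difference of the sterol storage and transport list without passing. It measured 8.86, 9.10, 8.97 and 8.22 on IL37TG arrays 1 to 4 and 10.38, 10.51, 9.11 and 9.97 on WT arrays 1 to 4 (log2 -1.20, SE 0.32, limma adjusted p = 0.0830). Its lowest arrays in each group were those of Abcg1, as they were for 37.2% (IL37TG) and 37.8% (WT) of all genes.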
